A study of Mus musculus with 24 samples.

Results

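Small RNA of 7 transgenic mouse hearts was compared between mice that carried a mutated human MYL2 transgene and had no shRNA (5 libraries) and mice that carried the normal human MYL2 allele (2 libraries). MYL2 codes for the regulatory light chain of ventricular myosin. These 7 libraries are 7 of the 24 samples of the series, which also holds 4 small RNA libraries of mutants given an shRNA virus and 13 polyA libraries, and each of the 7 hearts also gave a polyA library. The small RNA table had 568 rows, 1 per microRNA hairpin, and the 155 rows that averaged 10000 FPKM or more in the 11 small RNA libraries were compared. FPKM divides the fragments of a row by its length and by the library's mapped fragments. Levels are given in kFPKM, 1000 FPKM each, or MFPKM, 1000 kFPKM each.

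The wild-type group (replicates 2 and 3) had received a control AAV9 virus that does not express the M7.8L shRNA. The mutant group joined 3 hearts with the same control virus (replicates 1, 2 and 3) and 2 untreated hearts (replicates 9 and 11). Virus was injected into the jugular vein at day 3 of life, and all hearts were taken at an age of 4 months from mice on a CD1 background. The labels give the same genotype entry, RLC-47K L6, for every heart, so genotype was read from the sample names. The sources used here do not give the transgene's promoter. No wild-type heart was untreated, so the untreated mutants differ from wild type in virus as well as in genotype, and these cannot be told apart there. Sex also moved with genotype: by Y-linked polyA transcripts both wild-type hearts and untreated mutant 9 were male, and the other 4 mutants were female. Wild-type replicate 3 stood apart in polyA RNA: it held the most liver transcript, described with mir-122, and 8.31 FPKM of the female transcript Xist, where wild-type replicate 2 held 0.91, untreated mutant 9 held 0.186 and the females 37.5 to 72. Each library is 1 heart, and p-values measure the spread between these hearts.

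MicroRNAs are short RNAs cut from hairpin precursors, and the seed, a stretch near the 5′ end, sets which messenger RNAs they repress. Many lie inside protein-coding genes. In the heart, miR-208a, miR-208b and miR-499 lie in introns of the myosin heavy chain genes Myh6, Myh7 and Myh7b. MiR-21 and the miR-199 family are known from cardiac fibroblasts and hypertrophy, and miR-142 and miR-150 from white blood cells.

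Mature sequences of microRNAs described in detail, or that share a seed with one that changed, were read from RefSeq (GRCm38.p6). They are printed 5′ to 3′ with the seed, bases 2 to 8, in capitals. Of the 23 rows past the test, 20 had a mature entry. The first 3 are the myosin microRNAs, shown because miR-208a and miR-208b share a seed but moved in opposite directions.
miR-208a-3p: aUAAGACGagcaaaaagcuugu
miR-208b-3p: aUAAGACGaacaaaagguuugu
miR-499-5p: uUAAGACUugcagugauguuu
The next 3 are miR-222 and miR-221, which share a seed and both rose, and miR-21.
miR-222-3p: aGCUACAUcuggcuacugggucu
miR-221-3p: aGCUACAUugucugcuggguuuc
miR-21a-5p: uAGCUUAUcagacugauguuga
The 3 let-7 microRNAs that rose share 1 seed, and so do miR-192, which fell, and miR-215, which did not pass (adjusted p = 0.0527).
let-7e-5p: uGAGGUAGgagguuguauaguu
let-7c-5p: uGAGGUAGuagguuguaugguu
miR-98-5p: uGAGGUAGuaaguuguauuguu
miR-192-5p: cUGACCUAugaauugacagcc
miR-215-5p: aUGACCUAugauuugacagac
Over their aligned lengths from the 5′ end, miR-208a-3p and miR-208b-3p had 19 of 22 bases in common, and miR-221-3p and miR-222-3p had 11 of 23. The seed of miR-499-5p matched that of miR-208b-3p at 6 of 7 bases.

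Mutant hearts had far more miR-208b, more miR-21, miR-222 and miR-221, and less miR-499, miR-208a, miR-30a and miR-122 than wild-type hearts. Of 155 rows, 23 passed limma on log2(FPKM + 1000) at a Benjamini-Hochberg adjusted p under 0.05 (14.8%), 16 of them higher (10.3%) and 7 lower (4.52%) in mutants. The median difference of all 155 rows was 0.07 on the log2 scale, and 47 rows had an unadjusted p under 0.05. In all 23 rows the mutant and wild-type libraries did not overlap. It follows that untreated mutant 9, the male one, lay outside the wild-type range on the same side as the 4 females. Groups did not overlap in 35.5% of all rows tested, 28 with the mutants higher and 27 lower. An exact two-sided permutation test of 5 against 2 libraries has 21 splits and cannot go below p = 0.0952, which all 23 rows reached.

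The calls rest on 2 wild-type hearts and on the spread among these 7 libraries. With the 4 shRNA libraries also in the fit, no row passed (38 at an unadjusted p under 0.05): the differences were the same, but the adjusted p of the 23 rows lay between 0.0651 and 0.281, at 0.0669 for mir-208b. With shRNA replicate 8 left out of that fit, 24 rows passed, 20 of the 23 among them. Without wild-type replicate 3, 4 of the 23 passed (6 of all 155), miR-208b, miR-222, miR-499 and miR-21, which also passed whichever other library was left out. Without wild-type replicate 2, 11 of the 23 passed (11 of all 155), the same 4 and miR-497, miR-361, miR-148a, let-7c-1, miR-192, miR-122 and miR-208a. With sex as a covariate only miR-208b passed (log2 4.60, adjusted p = 0.000119). Both wild-type hearts were male, so each difference in that fit is that of male mutant 9 alone from them. None of the 23 changed sign, which follows from mutant 9 lying outside the wild-type range in all of them. In that fit the differences were 2.04 (SE 0.38) for mir-222, -1.32 (SE 0.28) for mir-499, 2.07 (SE 0.45) for mir-21 and 1.14 (SE 0.21) for mir-361, each at an adjusted p of 0.0588. Of the other rows, mir-98 passed in 1 of the 7 fits that left out a library, mir-27b and mir-1944 in 2 and mir-199b in 3. For 9 of the 23, the separate comparisons of control-virus mutants and of untreated mutants with wild type both passed in the same direction.

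**Figure D1:**
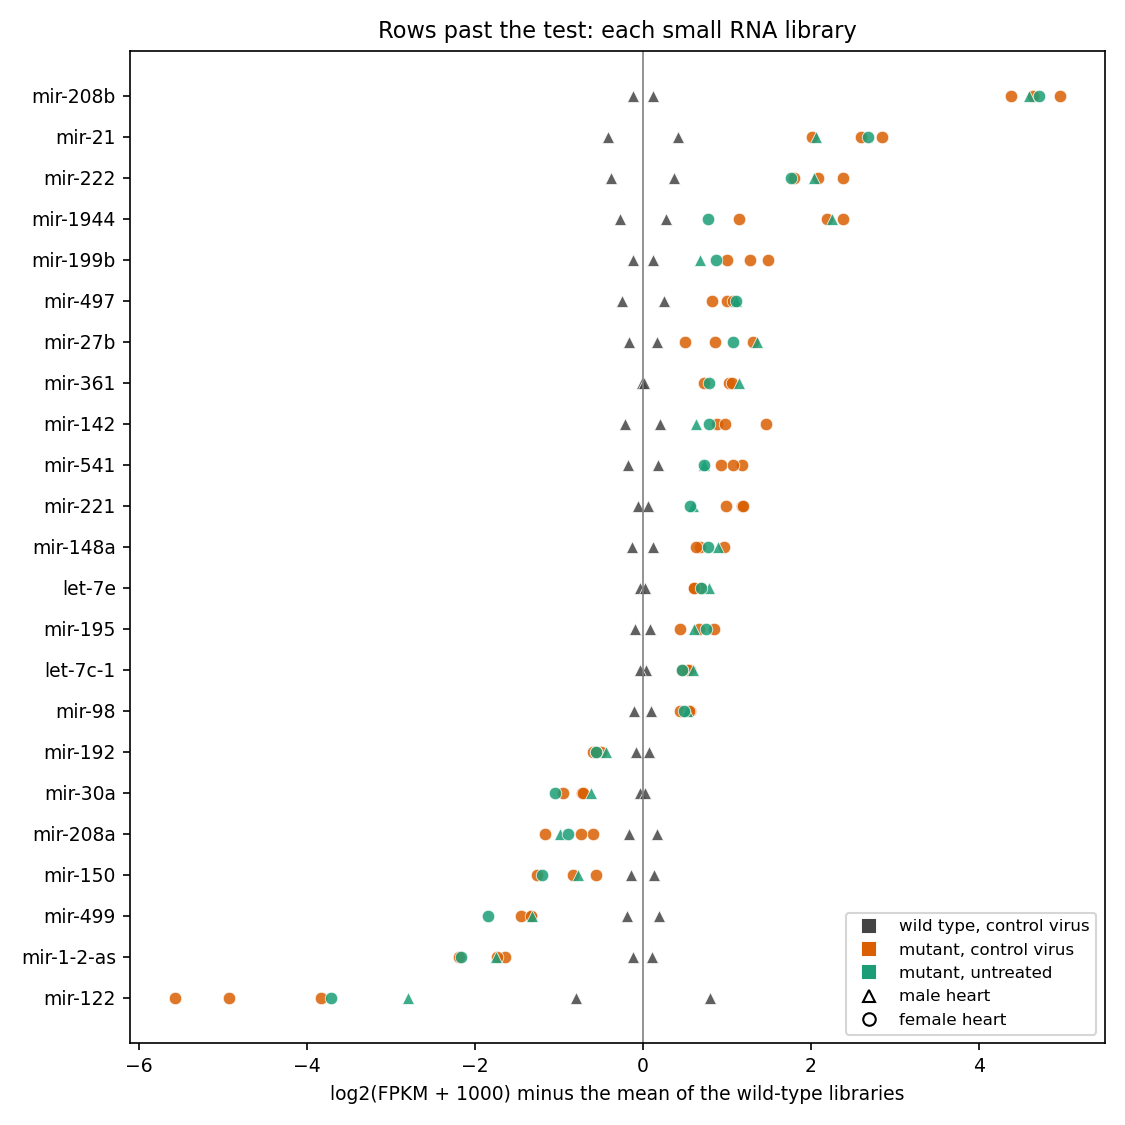
The 23 rows that passed, each library plotted as log2(FPKM + 1000) minus the mean of the wild-type libraries, coloured by group and shaped by sex. Wild-type libraries lie around 0, and all 5 mutant libraries lie on 1 side of both of them in every row. The group difference is largest for mir-208b (4.67), and the single library furthest from 0 is control-virus mutant 1 for mir-122.

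Read depth could be worked out from the table, because FPKM values were whole multiples of what 1 read is worth in a hairpin of a given length (99.2% of 2095 values within 0.1 of a whole read). The 7 libraries held 56004 reads (control-virus mutant 3) to 248882 reads (untreated mutant 11). One read counted for more FPKM in shorter hairpins: 26.1 kFPKM for miR-143, with 63 bases, but 1.62 kFPKM for miR-148a, with 99 bases. FPKM therefore does not rank microRNAs by molecules. Mir-143, a smooth muscle microRNA, took 43.6% of the FPKM but 18.1% of the reads, while miR-148a, outside the 10 highest rows by FPKM, came next by reads after mir-143, mir-126 and mir-30a. Of the 153 tested rows with reads, 41 had under 10 reads per library on average and none of those passed. Of the 23 rows that passed, 16 had at least 100 reads per library and 6 had 10 to 100. The row mir-1944 had no match in RefSeq and so no read number. Intervals on reads cover counting error only.

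**Figure D2:**
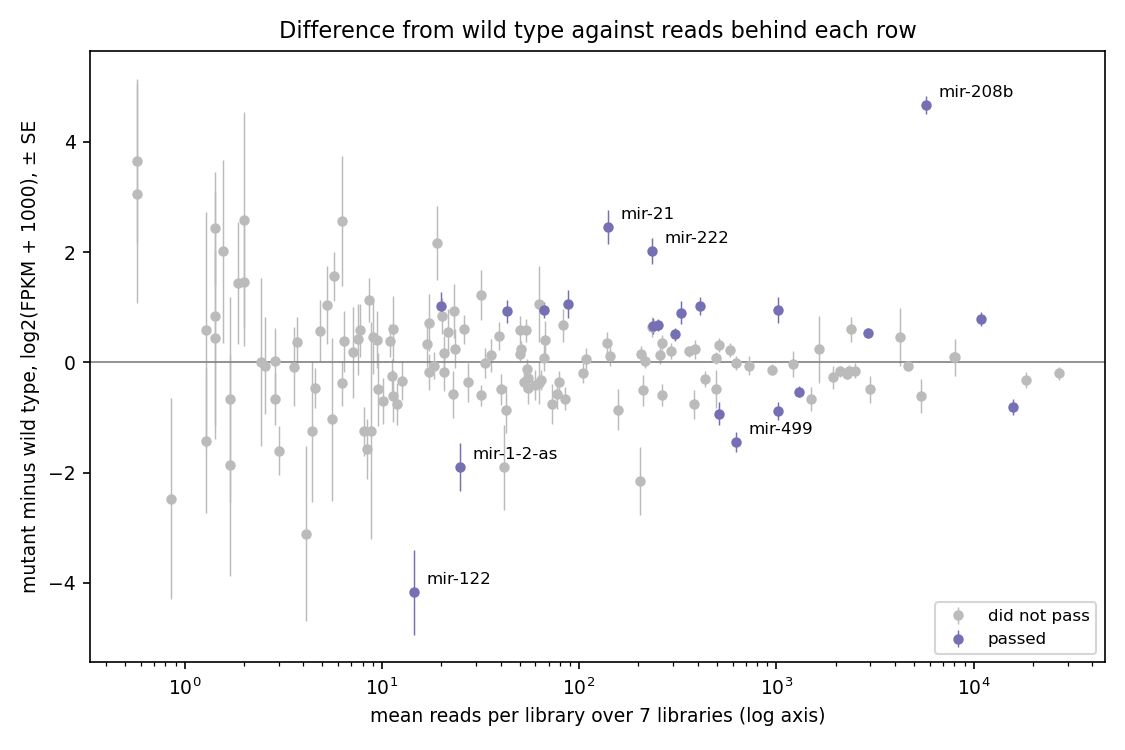
Difference between mutants and wild type on the log2(FPKM + 1000) scale, with its SE, against the mean reads per library (log axis) for the 153 rows with reads. Rows that passed lie between about 15 reads (mir-122, 14.6) and 15899 reads (mir-30a), and the widest error bars belong to rows under 10 reads.

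The myosin microRNAs showed the largest rise. Mir-208b stood at 1.96 and 1.67 MFPKM in wild-type replicates 2 and 3. In control-virus mutants 1, 2 and 3 it stood at 56.9, 37.9 and 45.4 MFPKM, and in untreated mutants 9 and 11 at 43.7 and 47.6. The lowest mutant library was thus far above both wild-type libraries, and control-virus and untreated mutants overlapped. The group means were 46.3 ± 6.93 (SD, n = 5) and 1.81 ± 0.207 (SD, n = 2) MFPKM, a 25.4-fold difference (log2 4.67, SE 0.16, limma adjusted p = 8.1e-07). In reads, wild-type libraries held 188 (95% exact Poisson interval 162 to 217) and 276 (244 to 311), or 194 and 170 per 100000 reads, and mutants 4431 to 6110 per 100000.

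Mir-208a went the other way. Wild-type libraries held 5.78 and 7.25 MFPKM, control-virus mutants 2.89, 4.3 and 3.87, and untreated mutants 3.26 and 3.48. The fall was 1.83-fold (log2 -0.88, SE 0.17, limma adjusted p = 0.0142). Together, the pair that shares the seed UAAGACG held 1074 and 1308 of 100000 reads in wild-type hearts and 4938 to 6586 in mutants. The share of the pair that was miR-208b was 18.1% and 13% in wild-type hearts and 85.2% to 92.8% in mutants.

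Mir-499 fell as well, from 5.77 and 7.55 MFPKM in wild type to 2.63, 2.42 and 2.62 in control-virus mutants. Untreated mutant 9 held 2.64 and untreated mutant 11 held 1.84 MFPKM, the lowest of all. The fall was 2.74-fold (log2 -1.45, SE 0.18, limma adjusted p = 0.0029).

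The polyA RNA of the same hearts, which the choice of rows did not use, gave the genes that hold these microRNAs. Myh7, the slow myosin heavy chain and the gene around mir-208b, was at 319 and 263 FPKM in wild type. In mutants 1, 2, 3, 9 and 11 it was at 1961, 1677, 1661, 2202 and 1655 FPKM, with no overlap, and rose 6.25-fold (log2(FPKM + 1) difference 2.64, SE 0.22, limma adjusted p = 4.15e-07). The fold was smaller than that of miR-208b, on another scale and another kind of library. Myh7b, around mir-499, fell from 44.4 and 49.4 FPKM to 22.5 to 28.5 FPKM (log2 -0.84, SE 0.20, limma adjusted p = 0.00593). Myh6, the main adult myosin heavy chain in mouse ventricle and the gene around mir-208a, was listed at 0 in wild-type replicate 2, mutant 3 and mutant 11 and at 12709, 3887, 4612 and 5150 FPKM in the other 4 hearts. An exact 0 for such an abundant gene can be a failed estimate, so the level of Myh6 was not read against that of mir-208a. Mir-208a was at 2.89 MFPKM or more in all 7. Myh6 still enters the host gene counts given next.

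**Figure D3:**
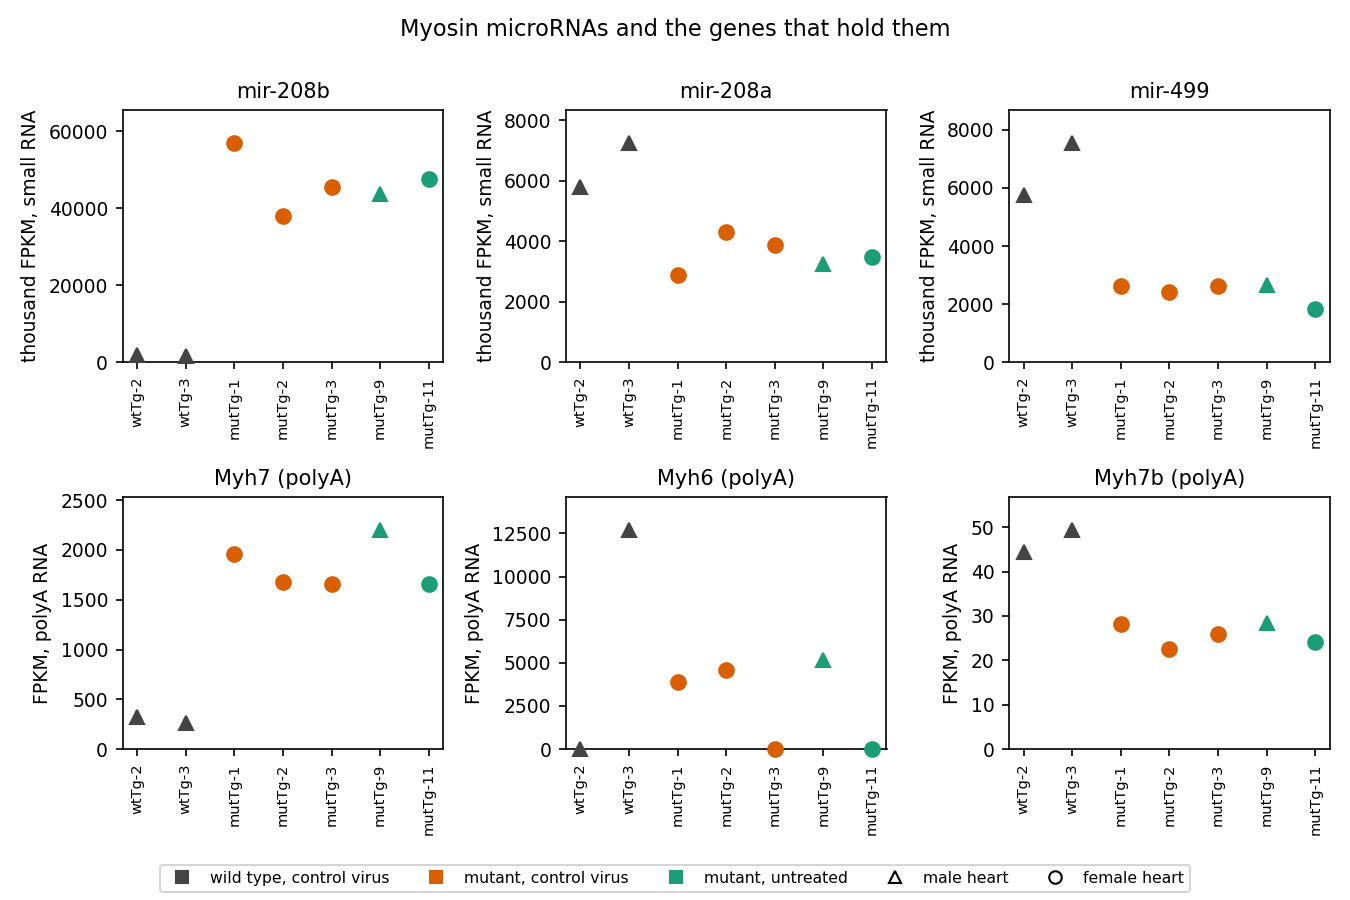
Mir-208b, mir-208a and mir-499 (upper row, kFPKM of small RNA) above the genes that hold them (lower row, FPKM of polyA RNA) in each of the 7 hearts, named wtTg for wild type and mutTg for mutant with the replicate number. Mir-208b and Myh7 are high in all 5 mutants, mir-499 and Myh7b are low in all 5, and Myh6 is listed at 0 in 3 hearts.

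Among 22 host genes of named microRNAs that were tested in polyA RNA, 5 passed, 3 higher and 2 lower, where 22.9% of all 12980 genes tested passed, 8.14% higher and 14.8% lower (median of all genes -0.16). Of the 8 rows past the small RNA test that have a tested host, 4 had a host that passed in the same direction, 0 in the opposite direction, and 4 had a host that did not pass. These counts include Myh6 with mir-208a as a host that did not pass (log2 0.47, SE 3.27, limma adjusted p = 0.941). Its listed 0 values can be failed estimates. The 4 in the same direction were mir-208b with Myh7, mir-499 with Myh7b, mir-361 with Chm and mir-27b with 2010111I01Rik (Aopep in RefSeq). Chm, a Rab escort protein gene, was at 12.2 and 12.1 FPKM in wild type and 18.9 to 42.5 in mutants (adjusted p = 0.00615). The Aopep row was at 82.7 and 83.2 FPKM against 131 to 216 (adjusted p = 0.00517). Mir-24-1, which lies in the same gene, had a negative difference and did not pass (-1.24, SE 1.97, 8.86 reads per library on average). Vmp1, whose transcript overlaps mir-21, was at 40.6 and 51.8 FPKM in wild type and 32.5 to 69.6 in mutants, with a difference of -0.00 (SE 0.26, adjusted p = 0.993), beside a rise of mir-21 itself. Huwe1, around mir-98, did not pass (log2 -0.50, SE 0.21, limma adjusted p = 0.0987). Huwe1 was lower in every mutant, at 45.7 to 64 FPKM against 68.6 and 75.2 in wild type, while mir-98 rose (log2 0.51). Dnm1, around mir-199b, had a positive difference like its microRNA and did not pass (log2 0.57, SE 0.22, limma adjusted p = 0.0633). Of the 5 host genes that passed, Myh7, Chm and 2010111I01Rik also passed with sex as a covariate, and Myh7b (adjusted p = 0.213) and Ppargc1b (0.598) did not.

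Among microRNAs tied to fibrosis and growth, mir-21, higher in many injured and hypertrophied hearts, was at 104 and 57.7 kFPKM in wild type. In control-virus mutants it was at 317, 565 and 476 kFPKM and in untreated mutants at 328 and 502. The rise was 5.45-fold (log2 2.45, SE 0.31, limma adjusted p = 0.0029). It rested on 26 and 25 reads in wild-type and 71 to 346 in mutant libraries.

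Mir-222 rose 4.04-fold, from 305 and 514 kFPKM to 1385, 2072, 1688, 1629 and 1348 kFPKM in mutants 1, 2, 3, 9 and 11 (log2 2.02, SE 0.24, limma adjusted p = 0.0029). Mir-221, its neighbour on the X chromosome with the same seed, stood at 412 and 448 kFPKM in wild type. It stood at 853, 974 and 986 kFPKM in control-virus mutants and 650 and 637 in untreated ones. The rise was 1.87-fold (log2 0.90, SE 0.21, limma adjusted p = 0.0276). Control-virus and untreated mutants did not overlap for mir-221, with a difference of 0.54 (SE 0.13, unadjusted p = 0.00473), and none of the 155 rows passed in that comparison, 0% (limma, 5 rows at an unadjusted p under 0.05). All 4 tested members of the list of mir-132, mir-212, mir-221 and mir-222 had a positive difference, with a median of 0.88 beside 0.07 for all rows, and 2 passed, where 10.3% of all rows rose. The other members were shallow: mir-132 (0.85, SE 2.24) and mir-212 (0.60, SE 0.60) averaged 1.43 and 11.4 reads per library. Their signs, and the list median, are therefore weak.

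Mir-199b was the 1 tested row of the mir-199 and mir-214 list, at 47 and 55.5 kFPKM in wild type. Mutants 1, 2, 3, 9 and 11 held 125, 145, 103, 82.6 and 94.5 kFPKM (2.09-fold, log2 1.06, SE 0.26, limma adjusted p = 0.0304). Mir-214 and the mir-199a rows held 19 reads or fewer in each library and were not tested. The summed polyA level of the fibroblast genes Col1a1, Pdgfra and Dcn was 651 and 914 FPKM in wild type and 1171 to 1981 in mutants. Most of that sum was Dcn, at 604 and 846 FPKM against 1020 to 1744. Col1a1 and Dcn passed (limma adjusted p = 1.32e-05 and 0.0226), and Pdgfra did not (0.0844). The part of fibroblasts in the change of mir-21 and mir-199b was not tested. In whole hearts, more cells of a type and more RNA per cell cannot be told apart.

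X-linked rows matter here because sex moved with genotype. Of 17 tested X-linked rows, 4 rose and 0 fell (median 0.51, 23.5% called), against 12 and 7 of the 138 others (median 0.01, 13.8% called). The 4 were mir-222, mir-221, mir-361 and mir-98. Mir-361 was at 465 and 471 kFPKM in wild type and 775 to 1034 kFPKM in mutants, and the highest was male mutant 9. Mir-98 was at 249 and 287 kFPKM against 365 to 394 kFPKM, with male mutant 9 at 386. With mutant 9 as the sole mutant against the 2 male wild-type hearts, the log2 differences were 2.04 for mir-222, 0.59 for mir-221, 1.14 for mir-361 and 0.53 for mir-98.

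In the let-7 family, which restrains growth genes, 3 of 11 tested members rose and 0 fell, where 10.3% of all rows rose and 4.52% fell, and the family median was -0.13, beside 0.07 for all rows. The sign of that median depends on scaling: it was 0.10 under quantile normalization and 0.03 with FPKM scaled to equal totals. Let-7e rose from 382 and 399 kFPKM to 594 to 675 (log2 0.68, SE 0.11, limma adjusted p = 0.00751). Let-7c-1 rose from 4.85 and 4.64 MFPKM to 6.58 to 7.18 MFPKM (log2 0.53, SE 0.09, limma adjusted p = 0.00751). The twin hairpin let-7c-2 makes the same mature microRNA and stood at 1.4 and 1.28 MFPKM against 1.19 to 1.44 MFPKM (log2 -0.01, SE 0.12). Reads of such copies may have been split between rows by the authors' counting, so the copies are uncertain one by one. Let-7f-1 and let-7f-2 were lower, by -0.60 and -0.61, and did not pass.

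In the miR-15 family, whose seed members slow the cell cycle, 2 of 5 tested members rose and 0 fell, and all 5 differences were positive (median 0.18), 4 of 5 under quantile normalization. Of all 155 rows, 10.3% rose and 81 had a positive difference. The 2 were the neighbours mir-497 and mir-195. Mir-497 was at 1044 and 741 kFPKM in wild type and 1559 to 1903 kFPKM in mutants (2.03-fold, SE of log2 0.16, limma adjusted p = 0.00657). Mir-195 was at 384 and 339 kFPKM against 489 to 651 kFPKM (1.59-fold, SE 0.15, adjusted p = 0.0242). Mir-15b, with the same seed, was at 1328 and 1630 kFPKM against 1117 to 2227 kFPKM, and overlapped. The family median is the value of mir-16-2 (0.18, SE 0.82), which averaged 7.14 reads per library. Mir-15b (0.08, SE 0.24) and mir-322 (0.07, SE 0.19) lay near the median of all rows, 0.07. The positive signs of these members are therefore weak.

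Among the other rows that rose, mir-148a had the most reads. It held 4844 and 4196 per 100000 reads in wild-type and 7724 to 8910 in mutant hearts, and its FPKM rose 1.73-fold (log2 0.79, SE 0.13, limma adjusted p = 0.00751). Mir-27b rose 2.03-fold on 6 and 13 wild-type and 10 to 39 mutant reads (adjusted p = 0.0376). Mir-27a, with the same seed, had a log2 difference of 1.56 (SE 0.44) and just missed (adjusted p = 0.0509), on 1 and 3 wild-type reads. Mir-541 was the 1 of 13 tested rows of the imprinted Dlk1-Dio3 cluster to pass, at 62.3 and 79.9 kFPKM against 118 to 161 kFPKM (1.91-fold, adjusted p = 0.0242). Of the 13 rows, 10 had a positive difference (8 with libraries aligned on their median or under quantile normalization), with a median of 0.25. Over all rows 81 of 155 were positive, the median was 0.07 and 14.8% passed. Many of the cluster's rows were shallow: mir-299 (3.66), mir-485 (2.43) and mir-540 (-1.42) averaged 0.571, 1.43 and 1.29 reads per library. Mir-127 (0.01, SE 1.53), mir-134 (0.02, SE 0.61) and mir-376b (-1.25, SE 1.28) averaged 2.43, 2.86 and 4.43. The sign count is therefore weak. Mir-1944 was at 347 and 510 kFPKM against 724 to 2198 kFPKM (adjusted p = 0.0446).

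Among microRNAs that fell, mir-30a was the second highest row by FPKM. It held 251 and 261 MFPKM in wild type, 133, 156 and 156 MFPKM in control-virus mutants and 167 and 124 MFPKM in untreated mutants. The fall was 1.75-fold (log2 -0.81, SE 0.14, limma adjusted p = 0.00893). Under quantile normalization the difference was -0.26 (SE 0.20, adjusted p = 0.426), and with sex as a covariate -0.61 (SE 0.20, adjusted p = 0.201). All 5 tested members of the miR-30 family, which is abundant in heart muscle, had negative differences between -0.81 and -0.20 (median -0.75), 4 of 5 under quantile normalization, and mir-30a was the 1 that passed. Of all rows, 4.52% fell and 74 of 155 had a negative difference. Of the miR-29 family, which represses collagen genes, 0 of 3 tested rows passed. Mir-29a, the 1 with deep counts, was at 13.8 and 15.3 MFPKM in wild type and 13.2 to 14.1 MFPKM in mutants (log2 -0.07, SE 0.09).

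Mir-192 was at 4.59 and 5.1 MFPKM in wild type and 3.21 to 3.57 MFPKM in mutants (1.44-fold, log2 -0.53, SE 0.10, limma adjusted p = 0.00991). Under quantile normalization the difference was -0.09 (SE 0.12, adjusted p = 0.667). Mir-215, with the same seed, was at 430 and 513 kFPKM against 45.9 to 227 kFPKM. Its difference was larger, -2.15, but so was its SE, 0.62, and it did not pass (adjusted p = 0.0527).

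Mir-122, the dominant liver microRNA, showed the largest fall, from 422 and 1276 kFPKM to 14.4, 23.2, 50.7, 105 and 54.9 kFPKM in mutants 1, 2, 3, 9 and 11 (log2 -4.17, SE 0.77, limma adjusted p = 0.00991). It rested on 14 reads (exact Poisson 95% interval 7.65 to 23.5) and 73 reads (57.2 to 91.8) in wild type and on 1, 1, 1, 7 and 5 reads in mutants. In polyA RNA the liver genes Alb, Apoa1 and Ttr fell (limma adjusted p = 0.000268, 0.000146 and 0.0398), Ttr with wild-type replicate 2 inside the range of the mutants, and Serpina1a was too low to be tested. The summed level of the 4 was 5.83 and 92.3 FPKM in wild-type replicates 2 and 3 and 0.67 to 1.05 in mutants, and Alb was at 66.3 FPKM in wild-type replicate 3 and at 0.177 or less in every mutant. Wild-type replicate 3 was highest in both kinds of RNA. Their part in the change of mir-122 was not tested. Without wild-type replicate 3 the log2 difference of mir-122 was -3.37 (SE 0.99) and did not pass (limma adjusted p = 0.0954), and with sex as a covariate it was -2.79 (SE 0.96, adjusted p = 0.24).

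Markers of white blood cells moved in both directions. Mir-142, made in all blood lineages, was at 17 and 12.7 MFPKM in wild type and at 27, 40.5, 28.8, 22.8 and 25.4 MFPKM in mutants 1, 2, 3, 9 and 11 (1.93-fold, log2 0.95, SE 0.23, limma adjusted p = 0.0276). Mir-150, high in mature lymphocytes, was at 15.6 and 18.9 MFPKM and at 7.16, 9.62, 11.6, 10.1 and 7.45 MFPKM (log2 -0.93, SE 0.21, limma adjusted p = 0.0242). Mir-155 did not pass (-0.49, SE 0.28). In polyA RNA, Ptprc, Cd68, Lyz2 and Cd3e summed to 240 and 258 FPKM in wild type and 561 to 1114 in mutants. Most of that sum was Lyz2, at 222 and 241 FPKM against 525 to 1060. Ptprc and Cd68 also rose (log2 1.50 and 0.79, limma adjusted p = 0.000137 and 0.0256). Cd3e, at 0.679 and 0.489 FPKM against 0.496 to 1.57, overlapped and was too low to be tested. The part of white blood cells in the change of mir-142 was not tested. The red cell rows mir-451 and mir-144 had differences of -0.67 and -0.86 and did not pass, nor did the endothelial row mir-126 (-0.32, SE 0.14) or the smooth muscle rows mir-143 (-0.20, SE 0.12) and mir-145 (-0.48, SE 0.35).

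The tissue label was checked against the muscle microRNAs. Mir-208a and mir-499 were high in all 7 libraries. The rows of the miR-1 and miR-133 families, the most abundant microRNAs of heart muscle, were near 0: mir-1-1 held 0 to 6 reads, mir-133b 0 to 5, mir-133a-2 0 or 1, and mir-133a-1 and mir-1-2 came to 0. Such values can be failed estimates in hearts, and no level of miR-1 or miR-133a was read from them. The row mir-1-2-as, antisense to a miR-1 hairpin, fell from 36.9 and 43.4 kFPKM to 8 to 12.1 kFPKM (log2 -1.90, SE 0.44, limma adjusted p = 0.0262; -2.85 under quantile normalization). The sources used here do not give the strand of the counting, so its reads cannot be told apart from those of the miR-1 hairpin. Mir-206, a skeletal muscle microRNA, was listed at 0 in all 7. Rows of the miR-1 and miR-133 families were listed near 0 as well, so this 0 cannot show that mir-206 was absent. Of the 11 muscle microRNA rows, 6 were tested, 1 rose and 3 fell (median -0.82), where 10.3% of all rows rose and 4.52% fell (median 0.07). The 6 include mir-1-1 (-0.67, SE 1.86), and the 3 that fell include mir-1-2-as, so this count and median are weak.

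The other lists held 3 rows that passed, where 14.8% of all rows passed and their median was 0.07. In the miR-23, miR-24 and miR-27 list it was mir-27b, 1 of 4 (median 0.48), and in the miR-148 and miR-152 list mir-148a, 1 of 3 (median 0.16). In the list of liver, brain and epithelial microRNAs it was mir-122, which fell, 1 of 4 (median 0.84). That median rests on mir-375 (3.06, SE 1.99) and mir-200b (2.02, SE 1.66), with 0.571 and 1.57 reads per library on average. The other members were mir-141 (-0.33, SE 0.36) and mir-122 (-4.17, SE 0.77). None passed among 8 rows of the miR-17 to miR-92 clusters (median 0.01), 8 of miR-10, miR-99 and miR-125 (median 0.28), 5 of miR-181 (median 0.02) and 4 of miR-26, miR-22 and miR-378 (median -0.35). The single tested rows mir-34a (0.40, SE 0.35) and mir-335, of the imprinted growth list (-0.66, SE 0.21), did not pass either. For mir-34a the pooled value joins mutant groups that differed in sign. Control-virus mutants differed from wild type by 0.75 (SE 0.21) and untreated mutants by -0.14 (SE 0.23). Control-virus against untreated mutants gave 0.89 (SE 0.21, limma unadjusted p = 0.00467, adjusted p = 0.367).

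**Figure D4:**
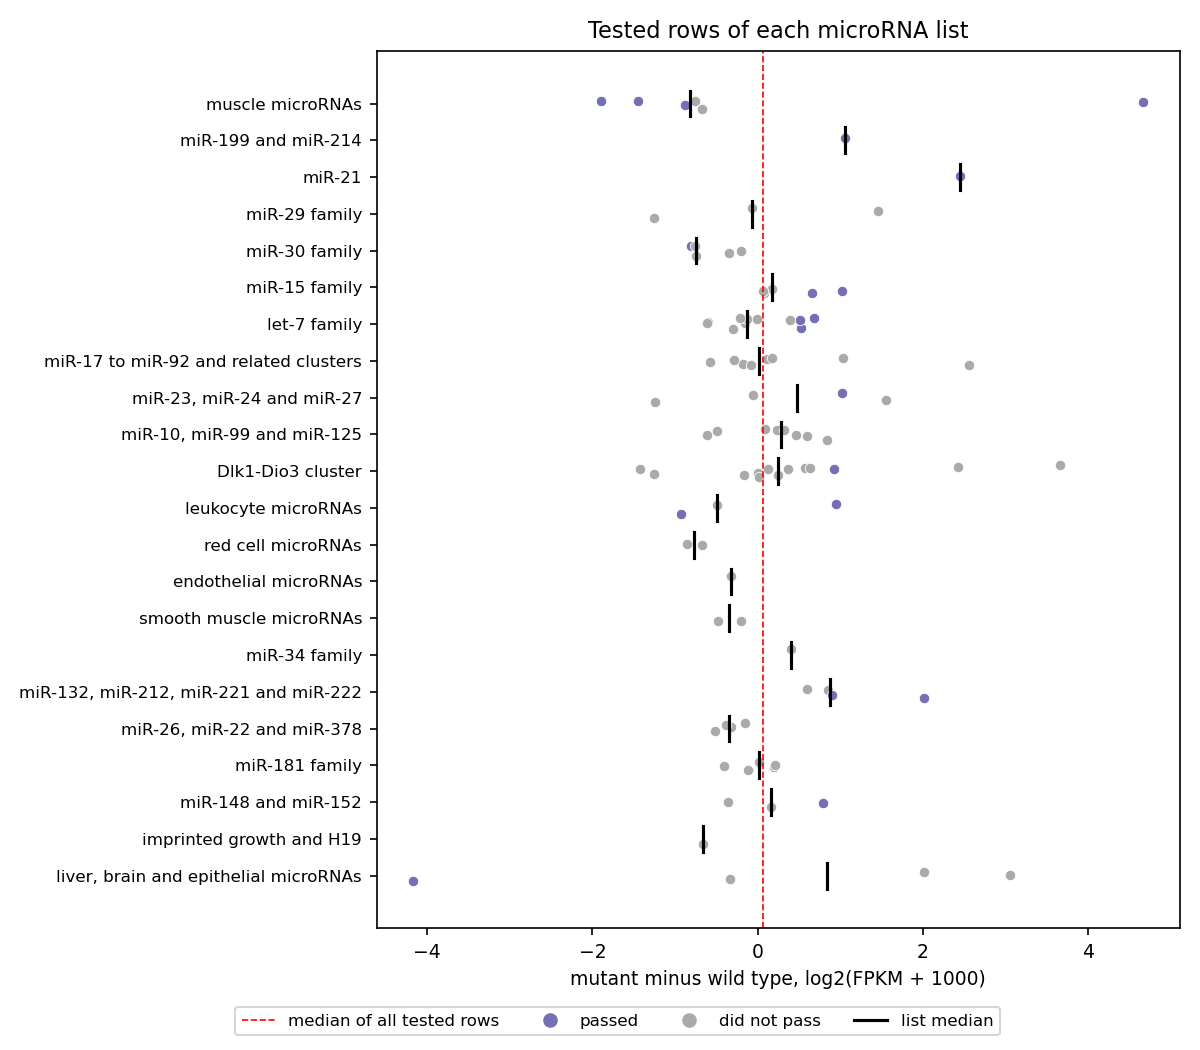
Difference between mutants and wild type on the log2(FPKM + 1000) scale for every tested row of 22 lists of microRNAs, with list medians as black bars and the median of all 155 rows (0.07) as a dashed line. Lists on both sides of 0 include let-7 and miR-29, the miR-30 and miR-15 lists lie on 1 side (4 of 5 rows each under quantile normalization), and the points furthest out are mir-208b (4.67) and mir-122 (-4.17).

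Pooling joined 2 kinds of mutants, and their separate differences from wild type, which share the wild-type libraries, were set side by side. Control-virus mutants differed in 18 rows (11.6%), 12 higher and 6 lower, and untreated mutants in 9 rows (5.81%), 8 higher and 1 lower. Mir-208b differed by 4.67 (SE 0.19) and 4.66 (SE 0.21), mir-21 by 2.49 and 2.38, mir-222 by 2.09 and 1.90, and mir-499 by -1.37 and -1.58. Mir-122 differed by -4.78 and -3.25, mir-199b by 1.25 and 0.78, and mir-142 by 1.11 and 0.71.

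**Figure D5:**
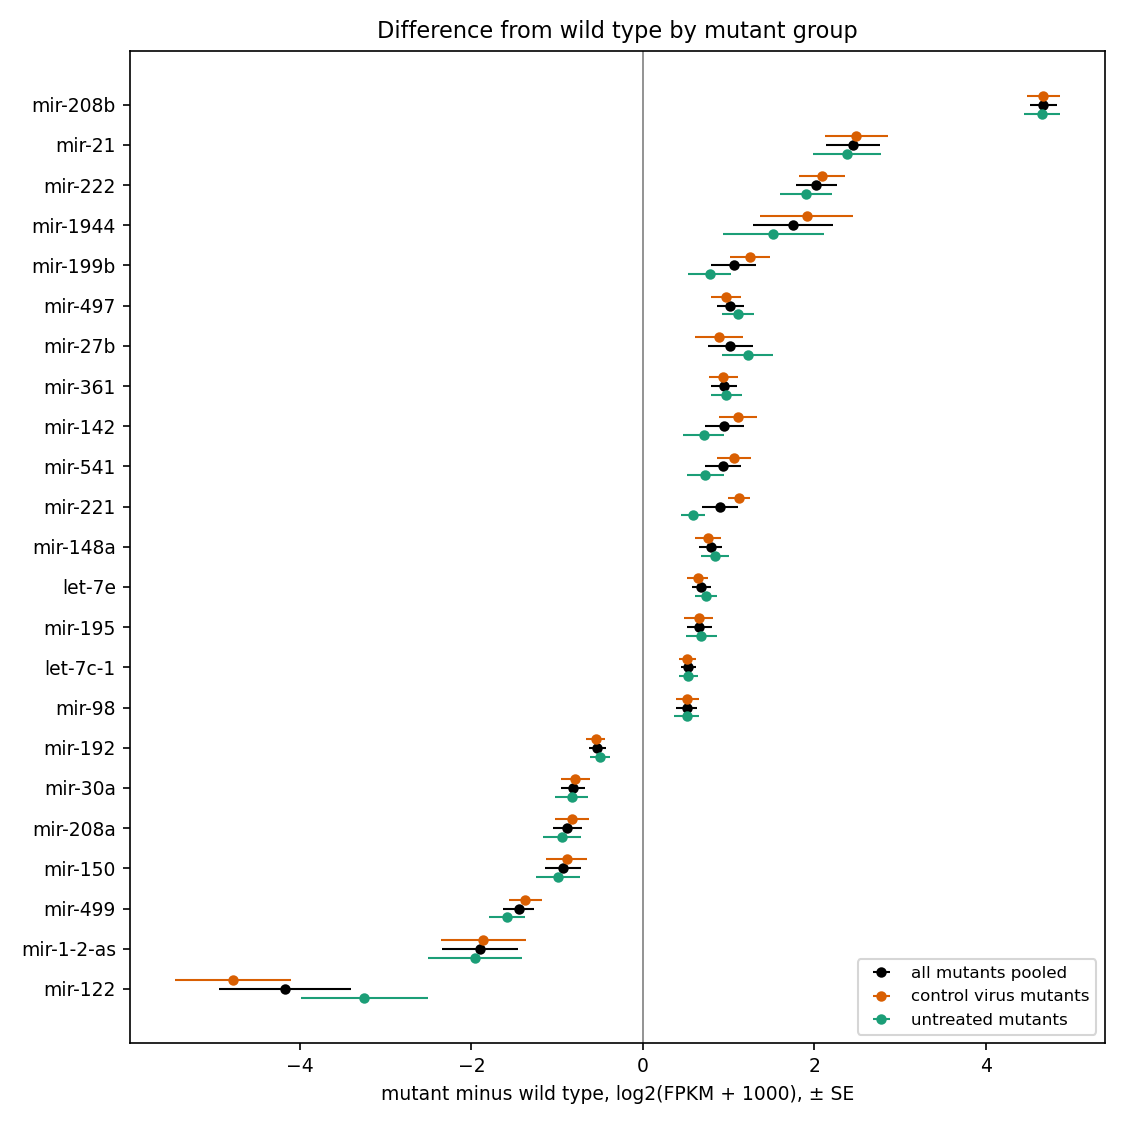
Difference from wild type on the log2(FPKM + 1000) scale, with its SE, for the 23 rows that passed, with all 5 mutants pooled (black), control-virus mutants (orange) and untreated mutants (green). The 3 values of a row lie close together for mir-208b, let-7c-1 and mir-98 and furthest apart for mir-122.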

How the data were processed

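Small RNA was sequenced as 50-base reads and polyA RNA as 100-base paired reads, per the labels. The submitters' processing notes name FastQC 0.11.2, STAR 2.40, Cufflinks 2.2.1, Cuffdiff and build mm9. The deposited values are FPKM in 1 table per assay. Rows averaging 10000 FPKM or more over 11 small RNA libraries were compared as log2(FPKM + 1000) with limma 3.58.1 in R 4.3.3 (lmFit, eBayes with a trend, two-sided, Benjamini-Hochberg over all rows), and polyA genes averaging 1 FPKM or more as log2(FPKM + 1). Fold changes are on these scales. The procedure was tested on simulated data. Of 568 rows, 515 matched RefSeq hairpins by name. Reads were worked out with an effective length for fragments of mean 200, SD 80 and minimum 50 bases; 514 rows gave reads. A heart with Ddx3y over 5 FPKM was taken as male. The text names every row that passed, the 10 highest rows by FPKM, up to 4 rows of each of 22 lists by smallest p, and a set of cardiac microRNAs. Members and lists were chosen with earlier results of these data known. Just inside the filter lay mir-29b-2 (10407 FPKM) and just outside it mir-337 (9795). Alternatives changed the pseudocount, filter, scaling, libraries and covariates. Chosen after seeing the data were a fit on reads (limma voom), a filter of 10 reads and a fit on male hearts.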

Additional observations from a re-analysis of the deposited data

Results flagged for a closer look

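Mir-499 in untreated mutant 11 lay apart from the other mutants, at 1838 kFPKM against 2424 to 2640 kFPKM in the other 4. Its gap to the nearest of them was 0.764 of the range of the 5 libraries, on the log2(FPKM + 1000) scale. Of the 23 rows examined this way it was the 1 that stood apart, and chance alone marks about 1 in 20 groups.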

How the results depend on the processing

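All 23 rows kept their direction under every alternative run (550 values, 176 of them no longer past the threshold). The groups did not overlap in these rows, so most alternatives could not have reversed a direction. Only those that rescaled the libraries or used reads could have done so. The pooled count was 0 with all 11 libraries in 1 fit (38 at an unadjusted p under 0.05), and 24 when shRNA replicate 8 was left out of that fit. It was 1 with sex as a covariate and 0 for male hearts only (29 unadjusted). It was 30 by limma voom on reads, where 21 of the 22 rows with reads stayed. The rows that stayed called numbered 0, 1 and 0 in the fits with all libraries, sex and male hearts, and 15 with untreated mutants alone. The replicate block left 0 (31 unadjusted), and 0 of the pooled rows; replicate numbers 2 and 3 are shared but mark different animals, whose deviations correlated at 0.02 and -0.04. With all 11 libraries the counts of control-virus and of untreated mutants were 0, and the first was 0 with the replicate block (31 unadjusted). Leaving out 1 library gave 6 to 30 pooled calls, 4 to 22 of the 23 rows kept, 3 to 25 for control-virus and 1 to 16 for untreated mutants, and 1 to 8 host genes. Host genes past the test numbered 9 with libraries aligned on their median, 3 with sex as a covariate and 1 with the replicate block. Scaling to equal FPKM totals moved the median of all rows from 0.07 to 0.23 and gave 21 higher and 7 lower; quantile normalization moved it to -0.04. Some rows that did not pass changed sign: mir-125a (-0.06), mir-126 (0.17), mir-143 (0.00) and mir-99b (-0.01) under quantile normalization, mir-10b (0.13) and mir-149 (0.08) with sex as a covariate and in male hearts only, mir-125a (-0.09) with control-virus mutants only and from -0.05 (without wild-type replicate 2) to 0.32 over the fits without 1 library, and mir-125a (-0.22) and mir-99b (-0.17) with the replicate block. The cause was not tested. Depth limits rows under 10 reads.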

Other observations

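The 4 mutant libraries labelled shRNA are in neither group of the main comparison; they entered the row filter and the fits with all libraries. By Y-linked transcripts replicates 5, 6 and 7 were male and replicate 8 female, so sex differs along with these values. In shRNA replicates 5, 6, 7 and 8, mir-208b was at 1620, 1616, 3561 and 64453 kFPKM, mir-21 at 90.8, 43.7, 83.3 and 347 kFPKM, and mir-499 at 11039, 9218, 11057 and 3412 kFPKM. Mir-222 was at 522, 370, 633 and 2330 kFPKM and mir-122 at 382, 896 and 336 kFPKM in replicates 5 to 7 and listed at 0 in replicate 8.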
